A study of Rattus norvegicus and Mus musculus with 251 samples.

Results

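Chaperones are proteins that help other proteins fold. The genes described here are 38 chaperone and stress response genes of the mouse, 20 of the cytosolic heat shock arm and 18 of the endoplasmic reticulum (ER) stress arm. They were chosen by symbol, with earlier results of these data known, and each was matched to 1 row of a mouse count table of 46078 genes. The cytosolic arm as counted here also holds Hspd1 and Hspe1, whose proteins are mitochondrial. All 38 passed the filter on low counts in both brain regions.

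In the cytosol, heat shock factors switch on genes for Hsp70, Hsp90 and their cochaperones when unfolded protein builds up. In the lumen of the ER, unfolded protein activates membrane sensors of the unfolded protein response, which raise lumenal chaperones through the transcription factors Xbp1, Atf4 and Atf6. Constitutive members of both arms are abundant in neurons, while the inducible Hsp70 genes are usually low in unstressed brain.

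The animals were C57BL/6J mice, an inbred strain, that drank saline or a morphine solution. The 4 treatments were saline, chronic morphine, 24 h after morphine and 2 weeks after morphine. The doses, the length of drinking and the age are not given in the sources used here. Total RNA was taken from punches of 0.5 mm. There were 30 libraries of prefrontal cortex (PFC) and 32 of nucleus accumbens (NAc), sequenced as read pairs of 75 bases.

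PFC had 6 saline libraries (3 female, 3 male), 8 under chronic morphine (3 female, 5 male), 9 at 24 h (4 female, 5 male) and 7 at 2 weeks (3 female, 4 male). NAc had 7 saline (3 female, 4 male), 8 chronic (3 female, 5 male), 9 at 24 h (4 female, 5 male) and 8 at 2 weeks (3 female, 5 male). Libraries carry a number, and 30 numbers occur in both regions. The labels do not say that a number is 1 animal, so p-values measure the spread between libraries. The 189 rat libraries of the series were not used.

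The labels call the cell type neuron, but the punches held RNA of other cells too: astrocyte, oligodendrocyte, microglia, endothelial and mural markers were counted in every library. In such bulk tissue, fewer cells of a type and less RNA per cell cannot be told apart. Totals were 22387525 to 43963295 counts per library in NAc and, but for 1 library, 24936879 to 41532464 in PFC. That library, number 10 of PFC at 2 weeks, had 5182601 counts, 10563 genes detected and 21.1% unaligned reads, against at least 18166 genes in the others. Number 27, labelled female under chronic morphine, went against its sex label in both of its libraries. Striatal neuron markers summed to 387 to 7704 counts-per-million (CPM) across NAc libraries, lowest in saline number 6 and next in chronic number 25 (417 CPM), and cortical markers reached 702 CPM in 1 NAc library at 24 h, number 24.

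The ends of the coding sequences show how the arms differ by address. Many lumenal ER chaperones end in a retrieval signal that returns escaped protein to the ER, encoded by the last 4 codons before the stop. Other ER members, among them Canx and Dnajb9 with unlike ends, are not shown. The last 30 coding bases of a selection of ER members are given with those 4 codons in capitals. They come from GENCODE transcripts of GRCm38, the mouse genome build used throughout.
Hspa5: gaggatacatcagaaAAAGATGAGTTGtag
Hsp90b1: aaggaatctacagagAAGGATGAATTGtaa
Calr: tcccctggccaagccAAGGATGAGCTGtag
Pdia6: ctggatgacctggagAAGGATGAGTTGtga
Pdia4: aagaggagcaggaccAAGGAAGAGCTTtaa
Hyou1: aagcggccttcaaagAACGATGAACTAtaa
Sdf2l1: gatctctccacgggtCACGATGAACTCtga
Dnajc3: ccgttcagatttaagTTCCACTTCAATtaa
The capitals of the first 7 are near variants of one another, while those of Dnajc3, a lumenal Hsp40 cochaperone, are not.

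The cytosolic Hsp70 and Hsp90 genes listed next end differently, in a motif that cochaperones with tetratricopeptide repeats, such as Stip1, bind. Their last 30 coding bases are shown in the same way.
Hspa8: tcaggccccaccattGAAGAGGTGGATtaa
Hspa1a: tcaggacccaccatcGAGGAGGTGGATtag
Hspa1b: tcaggacccaccatcGAGGAGGTGGATtag
Hsp90aa1: gacacatcacgcatgGAAGAAGTAGACtaa
Hsp90ab1: gatgcctcgcgcatgGAAGAGGTGGATtaa
Hspa1a and Hspa1b are identical over these bases.

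Levels are compared between genes per length, as counts-per-million (CPM) divided by kilobases of exon (RPKM). The cytosolic arm spanned the wider range. Hsp90ab1, the constitutive Hsp90, was highest, with a median over all libraries of a region of 567 RPKM in PFC and 589 RPKM in NAc. Constitutive Hsp70, Hspa8, followed with 177 and 168 RPKM, and Hsp90aa1 with 161 and 148 RPKM. Stip1, which hands clients from Hsp70 to Hsp90, had 96.9 and 105 RPKM.

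The inducible Hsp70 genes were the lowest members, Hspa1a with 2.14 and 1.20 RPKM and Hspa1b with 2.54 and 1.56 RPKM. Bag3, an Hsp70 cochaperone of autophagy, had 4.34 and 3.89 RPKM. Hspb1, the small heat shock protein, had 6.74 and 3.46 RPKM. In the ER arm the lectin chaperone Calr was highest, with 131 and 128 RPKM, and Sdf2l1 and Ddit3 were among the lowest, at 10.1 and 10.98 RPKM in PFC.

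Several cytosolic members have near copies in the genome, and a read of 75 bases cannot always be placed. Of the 38 members, 15 shared at least 1 window of 75 transcript bases with another annotated gene, 12 in the cytosolic arm and 3 in the ER arm. Over 20% of windows were shared for 7 members, all of them cytosolic. Hspa8 shared 68.0%, Hspb1 57.7%, Hspa1b 55.8%, Hspa1a 54.2% and Hsp90aa1 53.1%. Among the ER members the highest share was 3.80%, for Ddit3, with another annotated gene of the same symbol. Pdia4 and Hspa5 shared none.

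Hspa8 (chromosome 9, 40800984 to 40810087, plus strand) is the main case. Its processed pseudogene Gm15459 (chromosome 5, 5781615 to 5783555) matched 64.3% of its windows. Gm15459 counts relative to Hspa8 counts fell into 3 ranges that did not touch. The share was 6.54% to 8.91% in 27 libraries, 24.95% to 33.3% in 27 and 60.6% to 68.4% in 8. All 30 numbers with both regions were in the same range in PFC and NAc.

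Levels of Hspa8 itself followed these ranges, of which it is the denominator. Hspa8 was 634 to 1185 CPM in libraries of the low range, 483 to 839 CPM in the middle range and 396 to 532 CPM in the high range. CPM here are counts-per-million after scaling by trimmed means (TMM). As a description over libraries that share depth and dissection, log2 CPM of Hspa8 and Gm15459 correlated at r = -0.72 in PFC (n = 30) and -0.67 in NAc (n = 32).

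The ranges were spread unevenly over the groups. All 3 saline females were in the high range, whereas the 4 saline males were 2 low and 2 middle. Under chronic morphine 7 numbers were low and 1, a male, was middle. At 24 h the 4 females were low, and the males were 1 low, 3 middle and 1 high. At 2 weeks all 8 numbers were middle. A difference in Hspa8 between groups therefore cannot be told apart from a difference in how the libraries of a group fall into these ranges.

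**Figure D1:**
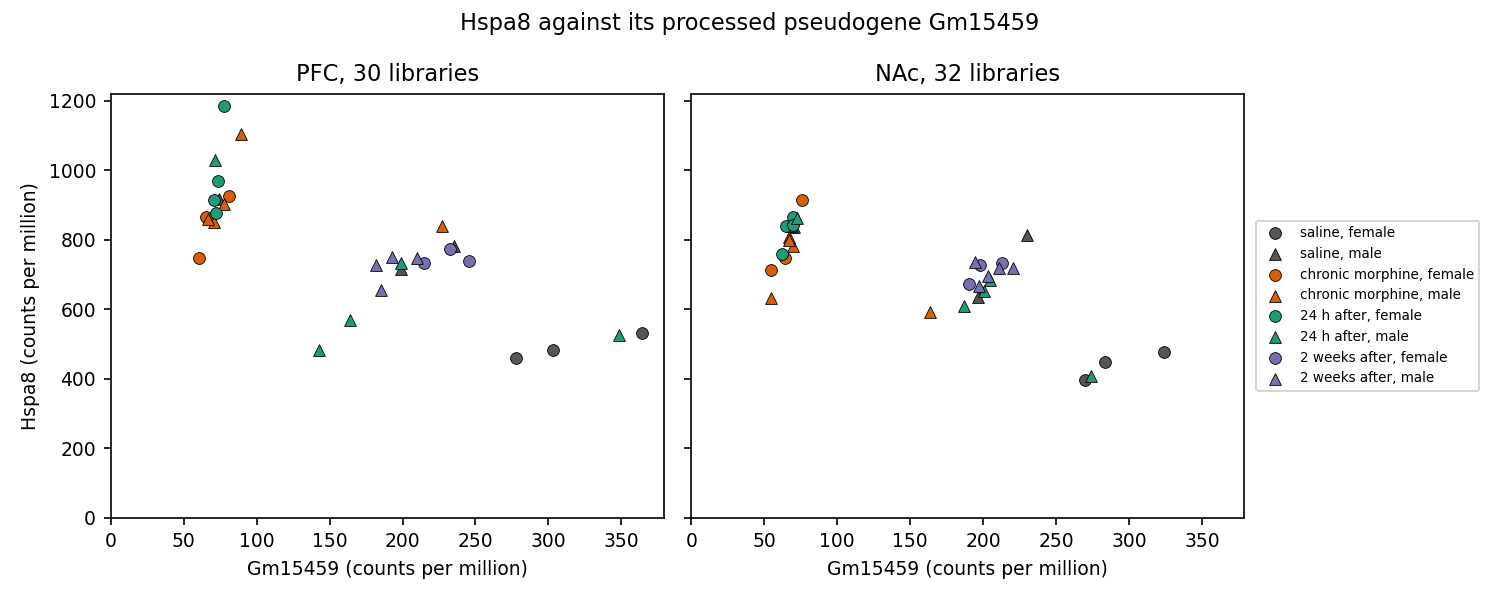
Hspa8 against Gm15459 in each library, both axes in CPM, PFC on the left and NAc on the right, with colour for treatment and shape for sex. The 8 libraries of the high range lie at 270 to 364 CPM of Gm15459 and at most 532 CPM of Hspa8.

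The next question was which members differed from saline during and after morphine drinking in NAc. Log2 fold changes are averages over the sexes from edgeR's quasi-likelihood test, given ± SE. A member is said to have risen or fallen where its Benjamini-Hochberg adjusted p over all genes tested was under 0.05. The 3 comparisons share the saline libraries.

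Of the ER arm, Pdia4, an ER protein disulfide isomerase, and Dnajc3 rose in NAc at 24 h after morphine. These 2 of 38 members passed, against 0.163% of 18382 genes tested. Pdia4 (chromosome 6, 47796141 to 47813430) had 34.8, 39.6 and 43.2 CPM as lowest, median and highest of 7 saline libraries, and 36.3, 53.3 and 67.4 CPM in 9 libraries at 24 h. The groups overlapped at the low end, where males at 24 h lay. Its log2 fold change was 0.44 ± 0.09 (edgeR adjusted p = 0.0279).

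Dnajc3 (chromosome 14, 118937976 to 118981697) had 53.3, 57.8 and 63.5 CPM in saline. At 24 h it had 63.6, 69.9 and 77.6 CPM, so that the ranges did not overlap. Its log2 fold change was 0.28 ± 0.06 (edgeR adjusted p = 0.0382).

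The next members in order of p were Xbp1, the transcription factor, and Sdf2l1, a partner of Hspa5, neither of which passed. Xbp1 had 75.8, 79.2 and 88.8 CPM in saline and 74.7, 96.0 and 115.9 CPM at 24 h (log2 fold change 0.28 ± 0.06, edgeR adjusted p = 0.0563). Sdf2l1 had 9.15, 10.5 and 11.8 CPM in saline and 8.53, 15.3 and 18.1 CPM at 24 h (0.47 ± 0.11, edgeR adjusted p = 0.0595). Both groups overlapped.

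Hspa5 (BiP), the main lumenal Hsp70, had 307, 367 and 438 CPM in saline and 301, 412 and 535 CPM at 24 h (0.28 ± 0.08, edgeR adjusted p = 0.146). Of the 18 ER members 14 had a positive log2 fold change, with a median of 0.15, against a median of -0.0085 and 48.3% positive over all genes tested. An unadjusted p under 0.05 was found for 10 of the 18, 9 higher and 1 lower, against 12.1% of all genes. The lower one was Atf4 (-0.27 ± 0.11). In females alone 16 of the 18 ER members were positive (median 0.24), and 11 had an unadjusted p under 0.05, against 10.7% of all genes. In males alone 11 of the 18 were positive (median 0.03), and 3 had an unadjusted p under 0.05, against 7.11% of all genes.

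Markers of other cells moved in the same comparison. Striatal neuron markers had positive fold changes for 8 of 8 (median 0.31), and their sum was 387 to 4843 CPM in saline and 974 to 6653 CPM at 24 h. Microglia markers were positive for 6 of 6 (median 0.15) and endothelial markers for 6 of 6 (median 0.13), with none of the 20 passing. With a score of striatal minus cortical markers as a covariate, Pdia4 differed by 0.44 (edgeR adjusted p = 0.0118) and Dnajc3 by 0.28 (0.00664). Without number 24, Pdia4 differed by 0.40 (0.0481) and Dnajc3 by 0.28 (0.0449). Without saline number 6, which had 9.03 CPM of Drd1 and 6.48 CPM of Adora2a against NAc medians of 124 and 181 CPM, Pdia4 differed by 0.45 and Dnajc3 by 0.27, and neither passed (0.0692 and 0.0795). The part of microglia and endothelial RNA was not tested.

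Both calls lie near the threshold. The Pdia4 call was lost without saline number 1, 2, 4, 6 or 7 or 24 h number 18, 20 or 21, with adjusted p of 0.0504 to 0.149. The Dnajc3 call was lost without saline number 1, 2, 3, 6 or 7 or 24 h number 18 or 21 (0.0611 to 0.136), and also without the low-count filter (0.0588).

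**Figure D2:**
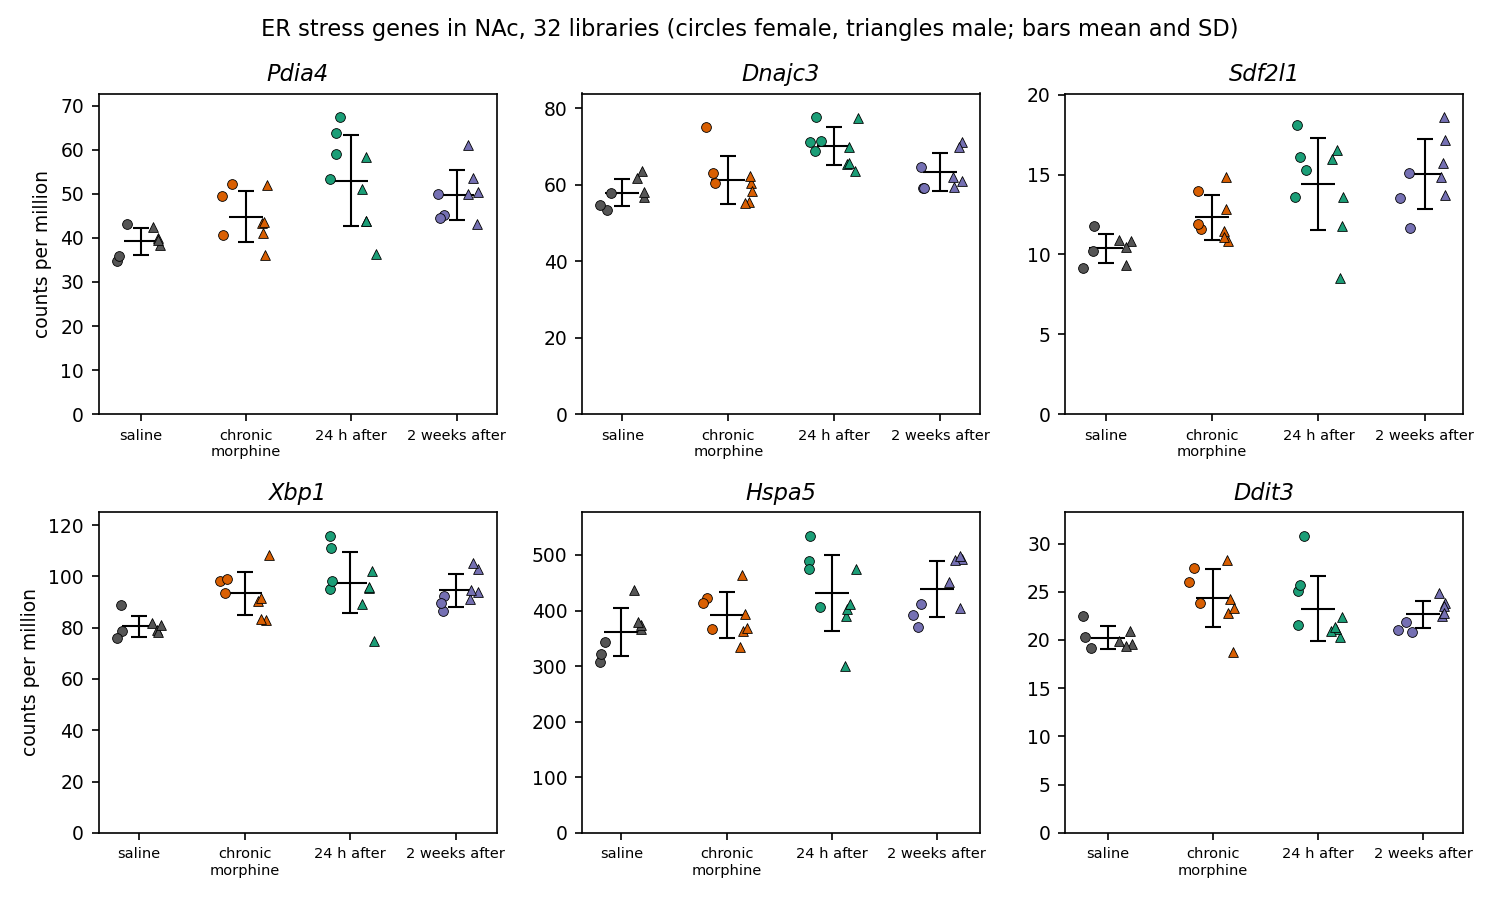
CPM of 6 ER stress genes in each NAc library by treatment, circles for females and triangles for males, with bars for mean and SD. Dnajc3 at 24 h lies at 63.6 to 77.6 CPM, above all 7 saline libraries, and Pdia4 spreads from 36.3 to 67.4 CPM at 24 h.

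Under chronic morphine 1 of 38 members passed in NAc, against 1.69% of all genes tested. Ddit3 (CHOP), the transcription factor of terminal ER stress (chromosome 10, 127290774 to 127296288), had 19.2, 19.9 and 22.5 CPM in saline and 18.8, 24.1 and 28.3 CPM under chronic morphine. It rose by a log2 fold change of 0.27 ± 0.07 (edgeR adjusted p = 0.0449), with overlapping groups. Ddit3 overlaps the genes Mars and Gm4189, and whether counting used the strand is not stated.

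The Ddit3 call was lost without 15 of the 32 libraries in turn, with adjusted p of 0.0505 to 0.113. These were saline numbers 1, 2, 3, 5, 6 and 7, chronic 26, 27, 28 and 30, 24 h numbers 18, 21 and 22, and 2 weeks numbers 13 and 15. Without number 27, whose sex label is in doubt, it was 0.30 (0.0590). Striatal neuron markers had positive fold changes for 8 of 8 in this comparison (median 0.56), and with the score of striatal minus cortical markers as a covariate Ddit3 differed by 0.25 (0.0454). With 2 surrogate variables the adjusted p was 0.0548, and without the low-count filter 0.0904.

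Atf4, the factor that acts upstream of Ddit3, had the opposite sign: 67.1, 86.0 and 103.7 CPM in saline and 50.1, 66.4 and 86.3 CPM under chronic morphine (-0.32 ± 0.11, edgeR adjusted p = 0.154). Sdf2l1 differed by 0.24 ± 0.11 (0.301), Xbp1 by 0.21 ± 0.06 (0.0772) and Dnajb11, an Hspa5 cochaperone, by 0.21 ± 0.06 (0.0733). Of the ER members 13 of 18 were positive (median 0.10), and of the cytosolic members 10 of 20 (median -0.01), against 48.2% of all genes (median -0.0091).

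In the cytosolic arm under chronic morphine, Hspa1a differed by -0.9965 ± 0.34 (edgeR adjusted p = 0.134) and its near copy Hspa1b by 0.54 ± 0.31 (0.432). Hspa8 differed by 0.36 ± 0.11 (0.0836). Counted together with its annotated copies, Hspa8 differed by 0.01 ± 0.07 (edgeR adjusted p = 0.986). Gm15459 fell by 1.47 on the log2 scale in the same comparison (edgeR adjusted p = 0.0028).

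Dnajb1, the inducible Hsp40, had 55.6, 73.1 and 87.3 CPM in saline and 49.2, 55.0 and 74.5 CPM under chronic morphine (-0.26 ± 0.08, edgeR adjusted p = 0.0819). In males alone it fell, by 0.50 ± 0.10 on the log2 scale (edgeR adjusted p = 0.0389, against 0.0653% of genes called). In females alone the value was -0.02 ± 0.12. Number 27, whose sex label is in doubt, is among these females. It had 56.9 CPM of Dnajb1, under the 60.9 and 74.5 CPM of the other females under chronic morphine. The sexes' difference in stage effects did not pass for Dnajb1 (0.268).

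At 2 weeks after morphine no member passed in NAc, where edgeR called 1 of 18382 genes, 0.00544%. All 38 members had a positive log2 fold change, with a median of 0.13 (0.17 in the cytosolic arm, 0.12 in the ER arm), against 50.3% of all genes tested and a median of 0.0009. An unadjusted p under 0.05 was found for 15 of 38, against 6.44% of all genes. DESeq2 called 1 member, Sdf2l1, and its share of all genes called is not given here. In females alone 37 of 38 were positive, and in males alone 29 of 38.

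Sdf2l1 had 11.6, 14.97 and 18.6 CPM at 2 weeks (0.49 ± 0.11, edgeR adjusted p = 0.147), with the lowest value just under the highest saline value. Pdia4 had 43.2, 50.04 and 61.0 CPM (0.33 ± 0.09, 0.307). Hspa5 had 371, 432 and 497 CPM (0.26 ± 0.08, 0.405).

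Of the cytosolic arm at 2 weeks, Hspa1a differed by 0.63 ± 0.33 (edgeR adjusted p = 0.811), Hspb1 by 0.58 ± 0.24 (0.648) and Hspa1b by 0.38 ± 0.32 (0.905). At 24 h the largest values of this arm were Hspa1b with 0.91 ± 0.30 (0.223), Hspb1 with 0.44 ± 0.23 (0.446) and Hspa8 with 0.31 ± 0.10 (0.228), and 12 of 20 were positive (median 0.07). In females alone 14 of 20 were positive at 24 h (median 0.16), and in males alone 6 of 20 (median -0.09). Summed with its copies, Hspa8 differed by 0.06 ± 0.07 at 24 h and 0.15 ± 0.07 at 2 weeks.

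Other members had narrow intervals near 0 in NAc. At 24 h the 95% interval of the log2 fold change was -0.14 to 0.14 for Hyou1, an ER chaperone of the Hsp110 family, -0.09 to 0.08 for Hsp90ab1 and -0.10 to 0.11 for Hsp90b1, the ER Hsp90. For Pdia3, the disulfide isomerase that works with Calr and Canx, it was -0.08 to 0.16, and for Dnajb9, an Hspa5 cochaperone, -0.09 to 0.15. Manf (0.10 to 0.40) and Creld2 (0.11 to 0.45), secreted and lumenal ER stress proteins, had intervals above 0 but did not pass after adjustment (edgeR adjusted p = 0.191 and 0.2).

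Between the morphine groups of NAc no member passed either. From chronic morphine to 24 h, against 0.087% of genes called, the largest values were Hspa1a with 1.04 ± 0.32 (edgeR adjusted p = 0.226), Hspb1 with 0.65 ± 0.23 (0.319) and Hspa1b with 0.37 in the cytosolic arm, and Pdia4 with 0.24 ± 0.08 (0.347) in the ER arm. From 24 h to 2 weeks, against 0.267%, Dnajb1 differed by 0.27 ± 0.07 (0.152) and Atf4 by 0.32 ± 0.11 (0.266). In these 2 comparisons 7 and 5 of 38 members had an unadjusted p under 0.05, against 8.84% and 9.49% of all genes. In males alone Dnajb1 rose from 24 h to 2 weeks (0.50 ± 0.09, edgeR adjusted p = 0.0174, against 0.201% of genes called), while the value in females was 0.04 ± 0.11.

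In PFC no member passed in any stage comparison. The share of the 17966 genes called was 0.417% for chronic morphine, 0.0779% at 24 h and 0.00557% at 2 weeks, all against saline. An unadjusted p under 0.05 was found for 5, 6 and 3 members, against 7.915%, 3.01% and 5.04% of all genes. DESeq2 called 2, 0 and 0 members, and its share of all genes called is not given here. Under chronic morphine 2 members came near.

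Atf4 in PFC had 97.9, 126 and 145 CPM in saline and 66.5, 85.8 and 128 CPM under chronic morphine, with overlapping groups (-0.51 ± 0.13, edgeR adjusted p = 0.0948). Hspa8 differed by 0.49 ± 0.12 (0.0894), and by 0.13 ± 0.10 (0.843) when summed with its copies. Without number 10 of the 2 weeks group, which takes no part in this contrast but in the estimate of spread, both passed (adjusted p = 0.0498) and 0.96% of all genes were called. Atf4 also passed without chronic number 32 or 24 h number 21, and Hspa8 without 24 h number 24.

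Immediate early genes, which respond to neuronal activity, fell in the same comparison: 13 of 18 passed, led by Egr2 (-3.35), Arc (-2.23) and Fos (-2.17). Choroid plexus markers were positive for 6 of 6, with 1 chronic library at 3479 CPM. Their part in the Atf4 value was not tested.

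At 24 h in PFC 14 of 18 ER members were positive (median 0.13) and 17 of 20 cytosolic members (median 0.06), against 53.7% of all genes (median 0.01). The sexes differed in this. In females alone 15 of 18 ER members (median 0.26) and 17 of 20 cytosolic members (median 0.18) were positive. In males alone 12 of 18 (median 0.02) and 5 of 20 (median -0.06) were. Medians over all genes were 0.016 in females and 0.005 in males. Averaged over the sexes, the largest values were Sdf2l1 with 0.54 ± 0.23, Pdia4 with 0.46 ± 0.14 and Creld2, an ER disulfide isomerase, with 0.46 ± 0.19. Of these Pdia4 had the lowest adjusted p (edgeR, 0.657). Pdia4 thus had similar point values in both regions, 0.46 in PFC and 0.44 in NAc.

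At 2 weeks in PFC, Hspa1a had 6.58, 11.9 and 27.4 CPM against 3.28, 6.07 and 9.44 CPM in saline (1.18 ± 0.33, edgeR adjusted p = 0.733). The highest value was that of number 10, and without that library the difference was 0.70 (edgeR adjusted p = 0.9999). Creld2 differed by 0.54 ± 0.21 (0.855), Hspa1b by 0.54 ± 0.27 (0.947) and Hspe1, the mitochondrial cochaperonin, by -0.36 ± 0.24 (0.947). Without number 10 these 3 values were 0.26, 0.22 and -0.15, each with an edgeR adjusted p of 0.9999. From chronic morphine to 24 h and from 24 h to 2 weeks no member passed, against 0.0278% and 0.15% of genes called. Hspa1a had the lowest adjusted p of these, for 24 h to 2 weeks (1.10 ± 0.30, 0.159). Without number 10 this was 0.62 (0.717), and Hspa1a passed without 2 weeks number 8 (0.0482) or number 9 (0.0380) and with DESeq2 (0.0200).

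Whether a stage effect differed between the regions was tested as an interaction over both regions. No member passed, against 0.0363% of 19266 genes, and the lowest unadjusted p was 0.0909, for Hspe1. The changes of Pdia4 and Dnajc3 in NAc at 24 h were therefore not shown to differ from those in PFC.

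Whether stage effects differed between the sexes was tested in each region over 3 coefficients. In NAc 1 of 38 members passed, against 0.0544% of all genes: Hspa1b (edgeR adjusted p = 0.0434). In PFC none passed, where 0.0% of genes were called, and 5 of 38 members had an unadjusted p under 0.05, against 4.71% of all genes. DESeq2 called Hspa8 there, and its share of all genes called is not given here.

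Hspa1b (chromosome 17, 34956436 to 34959238) was low in NAc of the females of 2 groups. Saline females had 0.40, 1.31 and 2.30 CPM and females at 2 weeks 1.26, 1.38 and 1.57 CPM. Females under chronic morphine had 3.45 to 5.42 CPM and at 24 h 4.62 to 6.38 CPM, above all of those 6 libraries. The value of 3.45 CPM was that of number 27, whose sex label is in doubt, and the other females under chronic morphine had 4.40 and 5.42 CPM. Males had 3.17 to 9.09 CPM in saline, 2.31 to 4.36 under chronic morphine, 2.16 to 8.98 at 24 h and 5.54 to 13.1 at 2 weeks.

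The male minus female difference in the effect on Hspa1b was -2.33, -2.36 and 0.62 on the log2 scale for chronic morphine, 24 h and 2 weeks. At 2 weeks females were lower than males by -2.65 ± 0.47 (edgeR adjusted p = 0.0172, 0.0381% of genes called), with no overlap. In saline the difference was -2.03 ± 0.48 (0.113).

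The call for the sex difference was lost without any of 25 of the 32 libraries in turn (adjusted p of 0.051 to 0.112), that is, without any library but saline 2 and 7, chronic 29, 24 h 16, 17 and 24, and 2 weeks 11. Without number 27, labelled female, the adjusted p was 0.0597.

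Hspa1a (chromosome 17, 34969190 to 34972156) lies next to Hspa1b and is nearly the same gene. Their coding sequences, 1926 and 1929 bases with the stop, were 99.6% identical, with 8 differing bases and 3 gap positions. Most reads of 75 bases from the coding part fit both. A stretch with 2 of the differences, coding bases 1357 to 1416, is shown with the differing bases in capitals.
Hspa1a: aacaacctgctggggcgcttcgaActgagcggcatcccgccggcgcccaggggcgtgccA
Hspa1b: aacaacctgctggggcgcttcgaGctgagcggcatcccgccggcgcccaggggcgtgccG

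Summed into 1 row, the pair no longer passed for the sex difference in stage effects (edgeR adjusted p = 0.215). At 2 weeks the summed pair was lower in females by -2.08 ± 0.42 (0.0763), and Hspa1a alone by -1.76 ± 0.49 (0.845). Hspa1a in NAc at 2 weeks was 3.13, 3.42 and 4.07 CPM in females and 5.87 to 18.6 CPM in males.

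**Figure D3:**
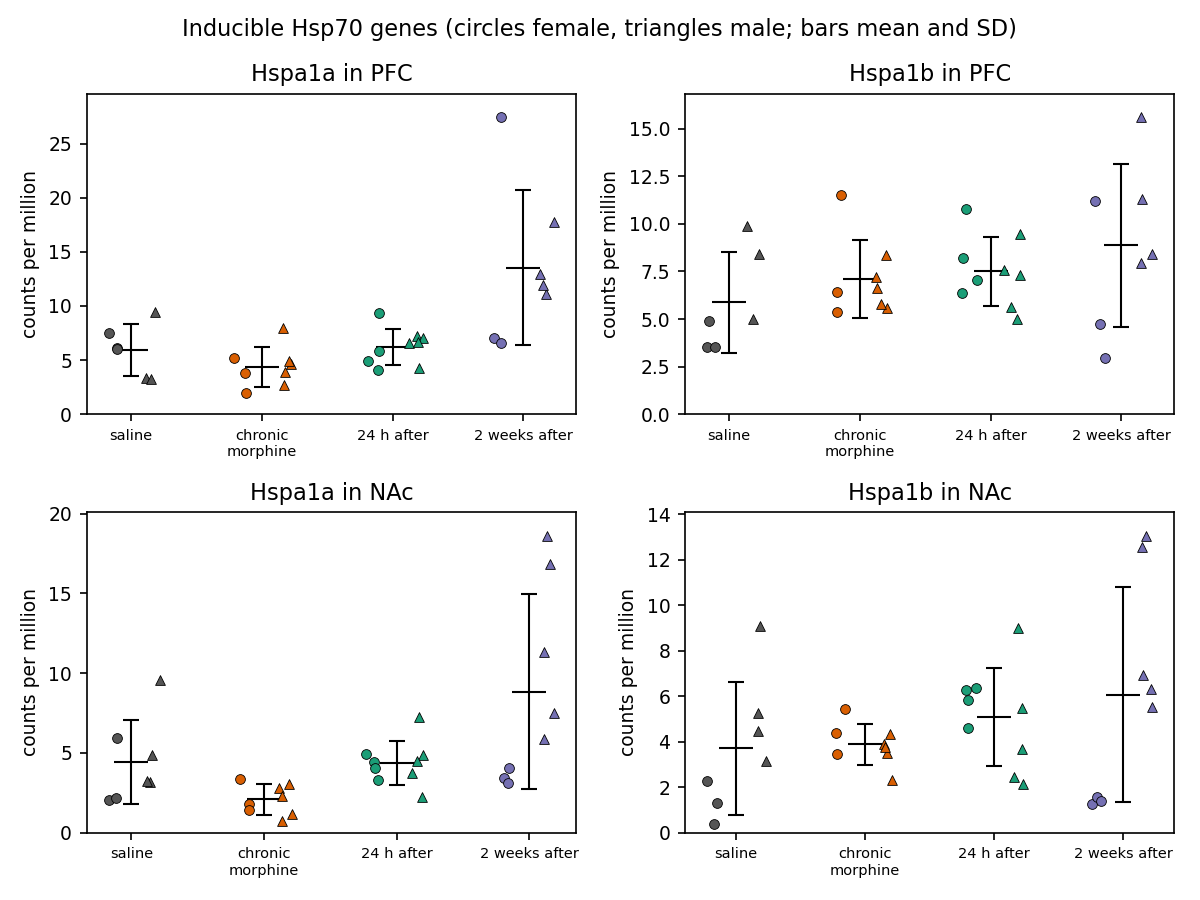
CPM of Hspa1a and Hspa1b in each library of PFC (top) and NAc (bottom) by treatment, circles for females and triangles for males, with bars for mean and SD. In NAc the 3 females at 2 weeks lie at 1.26 to 1.57 CPM of Hspa1b and the 5 males at 5.54 to 13.1 CPM.

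Hspa8 was near the threshold for the sex difference in NAc (edgeR adjusted p = 0.0608), with -0.96, -1.19 and -0.85 for male minus female effects. Saline females had 396, 448 and 478 CPM and saline males 637 to 840 CPM, with no overlap (-0.83 ± 0.16, edgeR adjusted p = 0.0208, 0.141% of genes called). These saline females are the 3 of the high Gm15459 range. Summed with its copies, the saline difference was -0.33 ± 0.11 (0.5263).

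Within females of NAc, Hspa8 rose under chronic morphine (0.84 ± 0.17, edgeR adjusted p = 0.0116, 0.609% of genes called) and at 24 h (0.90 ± 0.16, 0.00819, 0.196% of genes called). Summed with its copies, Hspa8 differed in these females by 0.21 ± 0.11 (0.498) and 0.27 ± 0.11 (0.357). Pdia4 (0.67 ± 0.13, 0.0177) and Hspa5 (0.54 ± 0.12, 0.0472) rose in females at 24 h too. In males at 24 h Pdia4 differed by 0.21 ± 0.11 (0.747) and Hspa5 by 0.02 ± 0.10 (0.998), against 0.0435% of genes called. The test of the difference between the sexes in stage effects did not pass in NAc for Pdia4 (0.5096) or Hspa5 (0.421). In PFC females Hspa8 rose at 24 h, by 1.014 ± 0.18 (edgeR adjusted p = 0.0151, 0.039% of genes called), and by 0.40 ± 0.14 (adjusted p = 1) when summed. Number 27, labelled female, had 714 CPM of Hspa8 in NAc under chronic morphine, under the 749 and 914 CPM of the other 2 females. Without it Hspa8 differed in females of NAc under chronic morphine by 0.91 ± 0.18 (edgeR adjusted p = 0.0163, 0.265% of genes called).

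Females of saline and chronic morphine also differ in another pseudogene. Gm10263 (chromosome 13, 73317844 to 73318143) was at 0 to 0.457 CPM in 25 libraries and at 4.84 to 17.2 CPM in 37, and on the same side in both regions for all 30 numbers. It was low in the 3 saline females, all 8 numbers at 2 weeks and 2 males at 24 h, and high in the rest. With this state as a covariate, Pdia4 at 24 h in NAc differed by 0.46 (edgeR adjusted p = 0.0334), Dnajc3 by 0.24 (0.0829) and Ddit3 under chronic morphine by 0.24 (0.168), and Hspa1b did not pass for the sex difference (0.0854). Males at 24 h are the 1 cell of treatment and sex with both states, so the covariate rests on those 5 numbers.

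The regions differed more than the treatments. Between NAc and PFC 26 of 38 members passed, 13 higher in NAc and 13 lower, against 66.2% of 19266 genes tested, so the members' share is near that of all genes. In the cytosolic arm 6 were higher and 9 lower, and in the ER arm 7 higher and 4 lower. Without number 10 of PFC, 26 passed as well, against 67.5% of genes.

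The largest difference was that of Dnajb5, an Hsp40 (chromosome 4, 42949814 to 42959425). In saline it had 159, 201 and 246 CPM in PFC and 52.6, 72.8 and 95.2 CPM in NAc, with no overlap. Its log2 difference, NAc minus PFC over all treatments, was -1.30 ± 0.08 (edgeR adjusted p = 7.41e-20).

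Hspe1 (chromosome 1, 55088132 to 55091307), the mitochondrial cochaperonin, went the other way, with 22.6, 30.99 and 35.8 CPM in PFC and 52.3, 56.0 and 61.1 CPM in NAc (0.99 ± 0.08, edgeR adjusted p = 1.7e-15). Its partner Hspd1 overlaps it head to head and was higher in NAc by 0.23 ± 0.04.

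Lower in NAc were the inducible members Hspa1b (-0.91 ± 0.14), Hspb1 (-0.90 ± 0.15), Hspa1a (-0.75 ± 0.16) and Dnajb1 (-0.38 ± 0.04). Higher in NAc was the Hsp40 gene Dnajb4, by 0.50 ± 0.04. Among the ER members the chaperones Hspa5 (0.49 ± 0.05), Hsp90b1 (0.37 ± 0.04), Hyou1 (0.36 ± 0.04), Canx (0.31 ± 0.05) and Pdia4 (0.29 ± 0.06) were higher in NAc. The transcription factor Atf4 (-0.48 ± 0.06), Herpud1 of ER-associated degradation (-0.37 ± 0.04) and Dnajb11 (-0.28 ± 0.04) were lower. The remaining ER members that passed were the transcription factor Ddit3 (0.25 ± 0.06) and Pdia6 (0.11 ± 0.05), higher in NAc, and Xbp1 (-0.17 ± 0.06), lower.

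**Figure D4:**
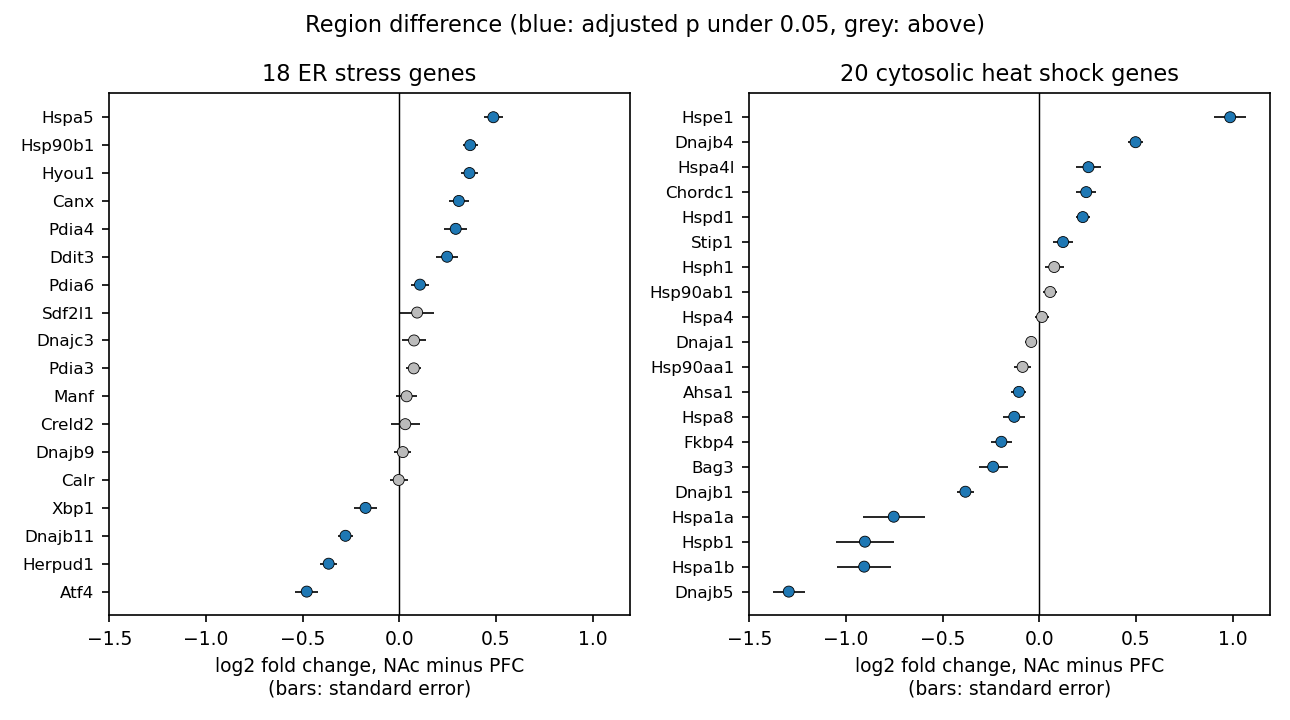
Log2 difference NAc minus PFC of each member with its SE, the cytosolic arm on 1 panel and the ER arm on the other, blue where the adjusted p was under 0.05 and grey above. Dnajb5 lies lowest at -1.30 and Hspe1 highest at 0.99.

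Pairs of members were also compared between libraries of the same treatment and sex. These correlations are descriptions, since libraries share depth and dissection. In PFC the median r over pairs was 0.25 within the cytosolic arm, 0.38 within the ER arm and 0.28 between arms (n = 30). In NAc the medians were 0.36, 0.27 and 0.19 (n = 32), with lower quartiles of -0.19, -0.10 and -0.06. No value over pairs of all genes is given here, so these medians are not shown to be particular to the members. Without number 10 the ER median in PFC was 0.50.

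The strongest pairs of NAc were Stip1 with Fkbp4, an Hsp90 cochaperone (r = 0.91), with Canx (0.90) and with Atf4 (0.90). The strongest negative pairs were Dnajb5 with Canx (-0.87), with Hsp90aa1 (-0.86) and with Stip1 (-0.83). Log2 CPM was also correlated between same-numbered libraries of the 2 regions over 30 numbers, here without removing the means of treatment and sex. The highest r were 0.83 for Hspa5, 0.83 for Hspa8, 0.75 for Dnajb1, 0.75 for Manf and 0.70 for Sdf2l1. Differences between treatments and sexes are part of these values.

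Genes of the same pathways that are not members were counted in the same way. No gene passed against saline in NAc, in any of the 3 comparisons, among 5 heat shock factors and regulators, 29 other cytosolic chaperones, 6 mitochondrial chaperones, 8 subunits of the TRiC chaperonin, 6 sensors of the unfolded protein response and 29 other genes of ER folding and degradation. Of the 29 ER genes 14 were positive at 24 h, with a median of -0.01. Of 20 targets of the integrated stress response, to which Atf4 and Ddit3 belong, 2 fell under chronic morphine in NAc: Atf3 (-1.20, edgeR adjusted p = 0.0358) and Cebpb (-0.54, 0.0459). Ddit4 fell at 24 h (-0.38, 0.00728). The cold-inducible Rbm3 fell under chronic morphine (-0.40, 0.0284).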

How the data were processed

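The mouse libraries' values are raw counts of reads, as the authors deposited them: whole numbers, with genes in rows and libraries in columns. The submitters' processing notes name FastQC, cutadapt, Trimmomatic, STAR, RSEM and HISAT2 and the builds GRCm38 and Rnor_6.0, without saying which served the mouse. Use of strand in counting is not given in the sources used here. The 5 rows of uncounted reads (a median of 14.7% aligned to several places) and 2 reporter rows were left out. No column was unused.

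The members and gene lists were chosen with earlier results of these data known. Each region was fitted with edgeR 4.0.16 (R 4.3.3, limma 3.58.1): TMM scaling, filterByExpr, cell means of treatment by sex, quasi-likelihood F tests, Benjamini-Hochberg adjustment over all genes, threshold 0.05. A fit over both regions gave the region tests. Log2 CPM used a prior count of 2. The fit was tested on simulated data. The text names the members that passed, or at least the 8 of smallest p per arm where more passed. For NAc against saline it also names the 3 of largest change per arm. In PFC, and between the morphine groups, only some of those with the largest change are named. Others, such as Xbp1, Hspa5 and Dnajb1, were chosen after their values were seen.

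Alternatives were DESeq2 1.42.0, median-of-ratios scaling, 2 surrogate variables (sva 3.50.0), omission of the low-count filter, a dissection score (striatal minus cortical markers), leaving out each library, and a replicate block for the region tests. Chosen after seeing the data were each sex alone (females under chronic morphine also without number 27), sums with annotated copies and the Gm10263 state. Positions and transcripts came from GENCODE for GRCm38. Of 188 genes on other lists 186 were matched.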

Additional observations from a re-analysis of the deposited data

Results flagged for a closer look

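In 15 members and the library totals, 128 pairs of a group and a value were searched for a library whose gap to the next exceeded Dixon's 95% limit, and 11 were found. Chance flags about 1 in 20. Of the 11, 5 were number 10 of PFC at 2 weeks: its total of 5182601 counts, and 38.2 CPM of Creld2, 14.7 CPM of Dnajc3, 3.86 CPM of Hspe1 and 35.2 CPM of Xbp1. In that library Creld2 was high and the other 3 genes low. Its depth and its share of unaligned reads stood apart in the same way, and their part in these 4 values was not tested.

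In NAc, Dnajc3 reached 75.2 CPM in chronic number 25, above the next library at 63.0 CPM. Hspb1 reached 7.67 CPM at 24 h in number 18, above 4.54 CPM. Creld2 was at 13.96 CPM in saline number 2, under 16.1 CPM in the next. In PFC, Ddit3 reached 32.2 CPM at 24 h in number 20, above 21.1 CPM. Hspa8 was at 656 CPM at 2 weeks in number 15, under 728 CPM, and Sdf2l1 at 6.30 CPM in saline number 3, under 9.40 CPM.

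The stage effect on Hspa1b differed between the sexes in NAc (edgeR adjusted p = 0.0434 over all genes), with female saline and 2 weeks libraries low. The call was lost when Hspa1a and Hspa1b were summed.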

How the results depend on the processing

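The number of members called per comparison was moved by the tool and by covariates. For most of these settings the share of all genes called is not given here. Whether the counts only follow that share was not tested, so they are no result about the members. Under chronic morphine against saline in NAc, 1 member was called, but 6 with 2 surrogate variables, 6 with DESeq2, 3 with the dissection score, and 0 with no low-count filter, with the Gm10263 state or in females with copies summed. At 24 h in NAc, 2 were called, but 7 with 2 surrogate variables, 4 with DESeq2, 6 with the dissection score, 1 with no filter, 1 with the Gm10263 state, 1 in females with copies summed, and 0 in males, with copies summed or not. At 2 weeks DESeq2 called 1 in place of 0. From chronic morphine to 24 h in NAc, 2 surrogate variables gave 3 and the dissection score 1. From 24 h to 2 weeks, 2 surrogate variables gave 1, the dissection score 2 and males alone 1, also with copies summed. For the sex difference in NAc, 2 surrogate variables gave 4, DESeq2 3, the dissection score 2, no filter 2, and summed copies or the Gm10263 state 0.

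In PFC, where 0 were called, DESeq2 gave 2 for chronic morphine, 1 from 24 h to 2 weeks and 1 for the sex difference. No filter gave 1 for the sex difference and females alone gave 1 at 24 h. Leaving out 1 library gave 0 to 2 for chronic morphine, 0 to 1 from 24 h to 2 weeks and 0 to 1 for the sex difference in PFC, and 0 to 3 for chronic morphine, 0 to 4 at 24 h and 0 to 2 for the sex difference in NAc. The cause was not tested.

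The sign turned for inducible Hsp70 genes that were not called: Hspa1a in PFC at 24 h (-0.0351 with the dissection score), Hspa1b in PFC from 24 h to 2 weeks (-0.29 with 2 surrogate variables, -0.0822 with the dissection score), and with the Gm10263 state Hspa1b in NAc under chronic morphine (-0.15) and from 24 h to 2 weeks (0.65). Leaving out 1 library gave -0.0655 to 0.42 for Hspa1a in PFC at 24 h, -0.0448 to 0.26 for Hspa1b in PFC from chronic morphine to 24 h, -0.23 (without number 10) to 0.28 for Hspa1b in PFC from 24 h to 2 weeks, and -0.0801 to 0.39 for Hspa1a in NAc at 24 h.

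Pdia4 at 24 h in NAc kept its call in each setting over both sexes that used all libraries. With the replicate number as a block, 27 members differed between NAc and PFC, and 0 passed for region by stage. The share of all genes called with the block is not given here. The numbers are not stated to pair libraries: deviations of same-numbered libraries correlated at -0.049 to 0.334 over 30 pairs, with 20 over 0.1, and 19 correlated best with their own number. Depth limits genes of few counts and number 10 of PFC, which had 20 counts of Hspe1 and 58 of Hspa1b.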
